A study of Mus musculus with 6 samples.

Results

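The genes of the immunoproteasome and of MHC class I peptide loading were followed in RAW 264.7, an established mouse line of macrophage-like cells. The 10 genes were chosen by name, with earlier results of these data known. They are the catalytic immunosubunits Psmb8, Psmb9 and Psmb10, the proteasome activator subunits Psme1 and Psme2, and the peptide transporter genes Tap1 and Tap2. The others are the loading factor Tapbp, the trimming peptidase Erap1 and the class I light chain B2m. Of the 10, 9 had at least 1 probe that names a single gene. A ratio on all 6 arrays was given for 8, which were tested, out of 9607 genes tested in all. Psme1 was listed at exactly 0 on all 6 arrays, which was taken as no ratio given, and no probe names Psme2 alone.

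Cells kept for 16 hours with lipopolysaccharide (LPS) at 100 ng/ml plus LPS-binding protein at 100 pM were compared with untreated cells kept for the same time. LPS is an outer membrane component of Gram-negative bacteria that activates macrophages, and the binding protein hands it to the receptor complex. RNA of both kinds of cells was hybridised to each of 6 dual-colour arrays, with the treated RNA in Cy5 on 3 arrays and in Cy3 on 3, and both orientations carry set numbers 1 to 3. No label says that the sets are separate cultures, so the p-values measure only how far these hybridisations scatter, and that scatter may be technical. The values are log2 ratios, turned here to treated over untreated, so that 0 is no difference and 1 is a 2-fold higher level in treated cells. Which dye the deposited table puts on top is not stated, and Cy5 over Cy3 was taken as the likely direction, since in each label the RNA named as test carries Cy5. A ratio gives no level, so the cell type could not be checked from the abundance of its markers. Fewer cells with a transcript and less transcript per cell cannot be told apart in such bulk RNA.

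Cells present peptides from their own proteins on MHC class I molecules. The proteasome cuts proteins into peptides, the TAP transporter moves them into the endoplasmic reticulum, Erap1 shortens them, and tapasin (Tapbp) holds the heavy chain with B2m next to the transporter until a peptide binds. After interferon, the catalytic proteasome subunits Psmb5, Psmb6 and Psmb7 are replaced in newly built proteasomes by Psmb8, Psmb9 and Psmb10, which gives the immunoproteasome. Psmb8, Psmb9, Tap1 and Tap2 lie side by side in the class II region of the mouse MHC on chromosome 17, and Psmb9 and Tap1 are read in opposite directions from one stretch of DNA.

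The start regions of 3 members, Tap1, B2m and Erap1, are shown as examples with different motifs, picked with their ratios known. Whether the motifs bear on the ratios was not tested. Each region is the RefSeq window of 300 bases, 250 before and 50 after the start site, from build GRCm38.p6. Capitals mark a Sp1 box in Tap1 (GGGCGG, read here on the opposite strand). In B2m they mark an interferon regulatory factor motif (GAAANNGAA) and, after it, a match to the NF-kappaB consensus. In Erap1 they mark a pair of overlapping interferon regulatory factor motifs on the opposite strand, and its Sp1 box, which follows them, is in lower case.
Tap1, chr17:34187306-34187605, plus strand: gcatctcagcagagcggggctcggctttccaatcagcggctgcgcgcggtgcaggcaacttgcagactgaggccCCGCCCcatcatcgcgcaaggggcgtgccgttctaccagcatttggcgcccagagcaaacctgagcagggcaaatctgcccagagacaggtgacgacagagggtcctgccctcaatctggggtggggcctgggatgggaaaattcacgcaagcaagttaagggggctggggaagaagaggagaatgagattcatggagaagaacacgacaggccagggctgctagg
B2m, chr2:122147437-122147736, plus strand: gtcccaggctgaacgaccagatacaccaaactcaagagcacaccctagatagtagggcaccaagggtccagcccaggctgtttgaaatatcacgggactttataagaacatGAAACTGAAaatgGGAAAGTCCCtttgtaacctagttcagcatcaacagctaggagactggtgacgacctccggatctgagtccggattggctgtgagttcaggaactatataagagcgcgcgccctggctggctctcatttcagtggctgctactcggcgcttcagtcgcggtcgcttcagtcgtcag
Erap1, chr13:74639603-74639902, plus strand: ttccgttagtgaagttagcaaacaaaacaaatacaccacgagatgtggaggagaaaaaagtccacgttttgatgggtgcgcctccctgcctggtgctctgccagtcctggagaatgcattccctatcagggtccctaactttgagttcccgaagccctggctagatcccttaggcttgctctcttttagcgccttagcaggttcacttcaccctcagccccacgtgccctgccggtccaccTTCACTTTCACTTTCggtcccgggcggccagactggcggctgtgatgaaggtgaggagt

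The Psmb9 window, on the minus strand, shares 275 bases with the Tap1 window printed above, and the same Sp1 box lies in both. Across 32851 windows of this length, read on both strands, the interferon regulatory factor motif occurred in 8.56%, the NF-kappaB consensus in 8.46%, the interferon gamma activated motif (TTCNNNGAA) in 8.3% and the Sp1 box in 35.7%. Among the 9 members with a window, the interferon regulatory factor motif was found in B2m, Erap1 and Psme1. The NF-kappaB consensus was found in B2m alone and the interferon gamma activated motif in Psmb8 alone. The Sp1 box was found in Tap1, Psmb9, Tapbp, Erap1, Psme1 and Psme2. The Psmb10 window held none of these 4 motifs, which says only that those letters are not in it.

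All 8 tested members rose in treated cells. In limma with Benjamini-Hochberg adjustment over all genes, 8 of 8 were higher at an adjusted p under 0.05 and 0 were lower, against 16.8% of all tested genes higher and 14.6% lower. Their median ratio was 1.06 (2.08-fold), while the median over all genes was -0.01. The 48 single ratios, 8 genes on 6 arrays, were all above 0, and 18.6% of all genes were above 0 on every array (1788 genes, with 1630 below 0 on every array). At least 2-fold rises were seen in 5 members (Tap1, Tapbp, Psmb10, Psmb8 and B2m), against 3.67% of all genes, with 0.781% at least 2-fold lower. A set value is the average of both dye orientations, and its SD over the 3 sets ranged between 0.08 and 0.24 among the members, and its median over all genes was 0.12. At the probe level, the 11 member probes with 6 ratios all rose, against 16.9% of all probes higher and 13.9% lower. Were the deposited ratios Cy3 over Cy5, every member would be lower in treated cells, and the shares of lower genes and probes would be the ones to set beside these counts.

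**Figure D1:**
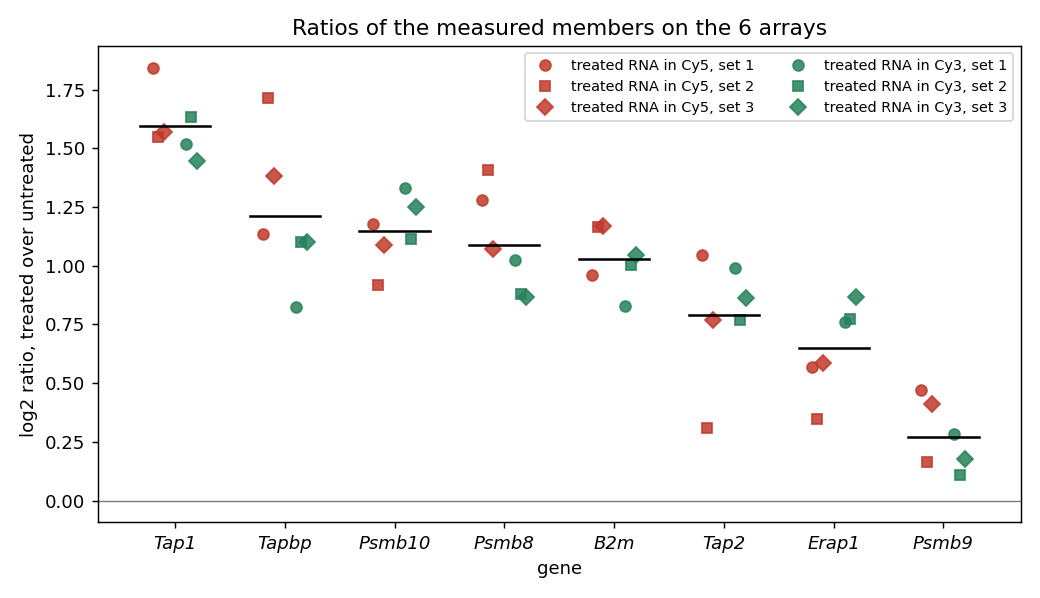
Log2 ratio of treated over untreated cells (vertical axis) of the 8 measured members (horizontal axis), with a point for each of the 6 arrays, coloured by the dye of the treated RNA and shaped by set; black lines are means. Every point lies above 0, Tap1 has the highest mean (1.59) and Psmb9 the lowest (0.27).

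All 3 immunosubunits rose, with unequal ratios. Psmb8, which replaces the chymotrypsin-like subunit, had ratios of 1.28, 1.41 and 1.07 with treated RNA in Cy5 and of 1.03, 0.88 and 0.87 with treated RNA in Cy3, for sets 1 to 3. It was 2.13-fold higher in treated cells (log2 1.09 ± 0.10, SD, n = 3, adjusted p = 9.42e-05 in limma). All 6 of its arrays lay well above 0, and the Cy5 values were higher than every Cy3 value.

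Psmb10, which replaces the trypsin-like subunit, had ratios of 1.18, 0.92 and 1.09 with treated RNA in Cy5 and of 1.33, 1.12 and 1.25 with treated RNA in Cy3. It was 2.21-fold higher (log2 1.15 ± 0.12, n = 3, adjusted p = 8.77e-05 in limma). Its 2 probes gave the same mean, 1.15 each, and the lowest of the 6 arrays was set 2 with treated RNA in Cy5.

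Psmb9, which replaces the subunit that cuts after acidic residues, had ratios of 0.47, 0.17 and 0.41 with treated RNA in Cy5 and of 0.28, 0.11 and 0.18 with treated RNA in Cy3. It was 1.21-fold higher (log2 0.27 ± 0.12, n = 3, adjusted p = 0.0378 in limma), the smallest rise among the members, measured with 1 probe. No Psmb9 array reached the lowest array of Psmb8 (0.87) or of Psmb10 (0.92). Psmb9 was no longer called when set 1 (0.22, adjusted p = 0.2) or set 3 (0.26, adjusted p = 0.0769) was omitted, nor on the arrays of either dye orientation alone (adjusted p = 0.0624 for Cy5 and 0.149 for Cy3).

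Set against the constitutive subunit that each one replaces, Psmb8 and Psmb10 had the higher ratio in each set measured, and Psmb9 the lower one. Psmb5 had set values of 0.25, 0.13 and 0.10 and was not called (log2 0.16 ± 0.08, adjusted p = 0.155 in limma). Psmb8 exceeded Psmb5 by 0.90, 1.02 and 0.87 in sets 1 to 3, a mean difference of 0.93 ± 0.08 (SD, n = 3), or 1.91-fold. The exact two-sided sign-flip permutation test gave p = 0.25, the smallest value that 3 sets allow. The difference was larger than the spread between sets for this pair, and it stood at 1.13 on the Cy5 arrays and 0.73 on the Cy3 arrays. That spread does not measure how probes differ, and Psmb8 has 1 probe.

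Psmb6 lacked a ratio on 1 array of set 1 and Psmb7 on both, so these pairs rest on sets 2 and 3, in which both counterparts were called higher (adjusted p = 0.0429 for Psmb6 and 0.0339 for Psmb7 in limma). Psmb9 stood at 0.14 and 0.30 there and Psmb6 at 0.29 and 0.37, a mean difference of -0.12 ± 0.05 (SD, n = 2). Psmb10 stood at 1.02 and 1.17 and Psmb7 at 0.56 and 0.28, a mean difference of 0.67 ± 0.30 (SD, n = 2). With 2 sets the exact sign-flip permutation test cannot go below 0.5, which both pairs gave. Psmb7 itself varied widely, with 0.92 and 0.54 on the Cy3 arrays of those sets and 0.19 and 0.03 on the Cy5 arrays.

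**Figure D2:**
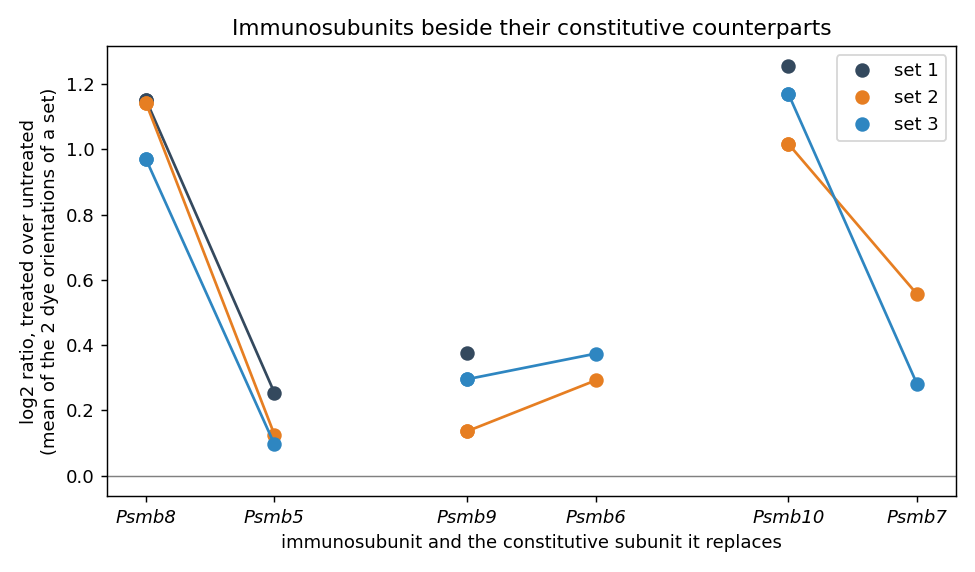
Log2 ratio of treated over untreated cells (vertical axis) of each immunosubunit and, to its right, the constitutive subunit it replaces; points are set means of 2 dye orientations, and lines join the genes of a set. Psmb8 lies above Psmb5 in 3 of 3 sets and Psmb10 above Psmb7 in 2 of 2, while Psmb9 lies below Psmb6 in 2 of 2.

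Psme1 and Psme2 encode the alpha and beta subunits of PA28, a ring that opens the proteasome for peptide release and is induced by interferon gamma. Neither could be measured by the rule. One probe names Psme2b, a gene whose older names in the RefSeq gene table mark it as a PA28 beta copy, and which of the copies it binds was not tested. That probe had 1.17, 1.16 and 1.15 with treated RNA in Cy5 and 0.88, 1.16 and 0.91 with treated RNA in Cy3. It was 2.10-fold higher in treated cells (log2 1.07 ± 0.08, n = 3, adjusted p = 8.63e-05 in limma) and is not counted among the members.

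Both genes of the peptide transporter rose, and Tap1 had the higher ratio in each set. Tap1 had ratios of 1.84, 1.55 and 1.57 with treated RNA in Cy5 and of 1.52, 1.63 and 1.45 with treated RNA in Cy3. It was 3.02-fold higher in treated cells (log2 1.59 ± 0.09, n = 3, adjusted p = 1.48e-05 in limma), the largest rise among the members. Its 2 probes stood at 1.88 and 1.31, and both were called.

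Tap2 had ratios of 1.05, 0.31 and 0.77 with treated RNA in Cy5 and of 0.99, 0.77 and 0.86 with treated RNA in Cy3. It was 1.73-fold higher (log2 0.79 ± 0.24, n = 3, adjusted p = 0.00143 in limma). The set 2 array with treated RNA in Cy5 lay below the other 5, and Tap2 had the largest SD of the members. Tap1 exceeded Tap2 by 0.66, 1.05 and 0.69 in sets 1 to 3 (mean 0.80 ± 0.22, exact sign-flip permutation p = 0.25, the smallest possible). Tap2 was measured with 1 probe, and the lower Tap1 probe had a mean of 1.31. The spread between sets does not measure how probes differ.

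Tapbp, or tapasin, which bridges the transporter and the class I molecule, had 1.13, 1.71 and 1.38 with treated RNA in Cy5 and 0.82, 1.10 and 1.10 with treated RNA in Cy3. It was 2.31-fold higher (log2 1.21 ± 0.22, n = 3, adjusted p = 0.000172 in limma). Its set means were 0.98, 1.41 and 1.24, and its 3 Cy5 values were higher than its 3 Cy3 values.

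B2m, the light chain shared by all classical class I molecules, had 0.96, 1.17 and 1.17 with treated RNA in Cy5 and 0.83, 1.00 and 1.05 with treated RNA in Cy3. It was 2.04-fold higher (log2 1.03 ± 0.12, n = 3, adjusted p = 0.000137 in limma). The 2 orientations overlapped, and set 1 was the lowest in both. A second B2m probe was listed at 0 on all 6 arrays and was left out. Counting those zeros as ratios would make the gene's mean 0.51.

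Erap1, the aminopeptidase that trims peptides inside the endoplasmic reticulum, had 0.57, 0.35 and 0.59 with treated RNA in Cy5 and 0.76, 0.77 and 0.87 with treated RNA in Cy3. It was 1.57-fold higher (log2 0.65 ± 0.08, n = 3, adjusted p = 0.00079 in limma), and its 2 probes gave 0.65 each. Here the Cy3 values were the higher ones.

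Non-overlapping dye orientations were thus seen in 3 of 8 members (Psmb8, Tapbp and Erap1), against 2302 of all 9607 genes. With 6 arrays in a model with a dye term, 0 members had a dye effect at an adjusted p under 0.05 (lowest 0.265), against 0.364% of all genes. By size the order was Tap1, Tapbp, Psmb10, Psmb8, B2m, Tap2, Erap1 and Psmb9. Only the first step and the last, Tap1 over Tapbp (0.38 ± 0.28) and Erap1 over Psmb9 (0.38 ± 0.08), separated neighbours whose set values did not overlap. The first step depends on the Tap1 probe with the higher mean (1.88). In set 2 the other Tap1 probe had 1.00 with treated RNA in Cy5 and 1.36 in Cy3. Both lay under the Tapbp value of that set, 1.41.

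Tap1 and Psmb9, whose start sites share the stretch printed above, were the members at opposite ends of that order. Tap1 exceeded Psmb9 by 1.30, 1.45 and 1.21 in sets 1 to 3, a mean of 1.32 ± 0.12 (n = 3), or 2.50-fold, in a comparison chosen after the values were seen. The exact sign-flip permutation test gave p = 0.25, the smallest possible, and the difference was larger than the spread between sets. That spread does not measure how the probes of a gene differ. The 2 Tap1 probes stood at 1.88 and 1.31, and Psmb9 has 1 probe. Psmb8 and Psmb10 exceeded Psmb9 by 0.82 ± 0.17 and 0.88 ± 0.0031, also chosen after seeing the values.

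In their order on chromosome 17, the 4 members Psmb9, Tap1, Psmb8 and Tap2 all rose, and none of their measured neighbours on either side was called higher. Before them, the class II gene H2-Oa stood at -0.02 and the chromatin reader Brd2 at 0.15, neither called, and H2-DMa, which helps to load class II molecules, fell (-0.70 ± 0.09, adjusted p = 0.000603 in limma). After them, the class II chains H2-Ab1 (0.23) and H2-Aa (-0.19) were not called, H2-Eb1 fell (-0.48 ± 0.22, adjusted p = 0.0101 in limma) and H2-Ea (-0.03) was not called. Without a ratio on all 6 arrays or without a probe of their own in this stretch were H2-DMb1, H2-DMb2, H2-Ob, Gm20506, H2-Eb2 and Btnl2. Among all genes 16.8% were called higher and 14.6% lower, and so few measured neighbours give no result about the stretch.

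**Figure D3:**
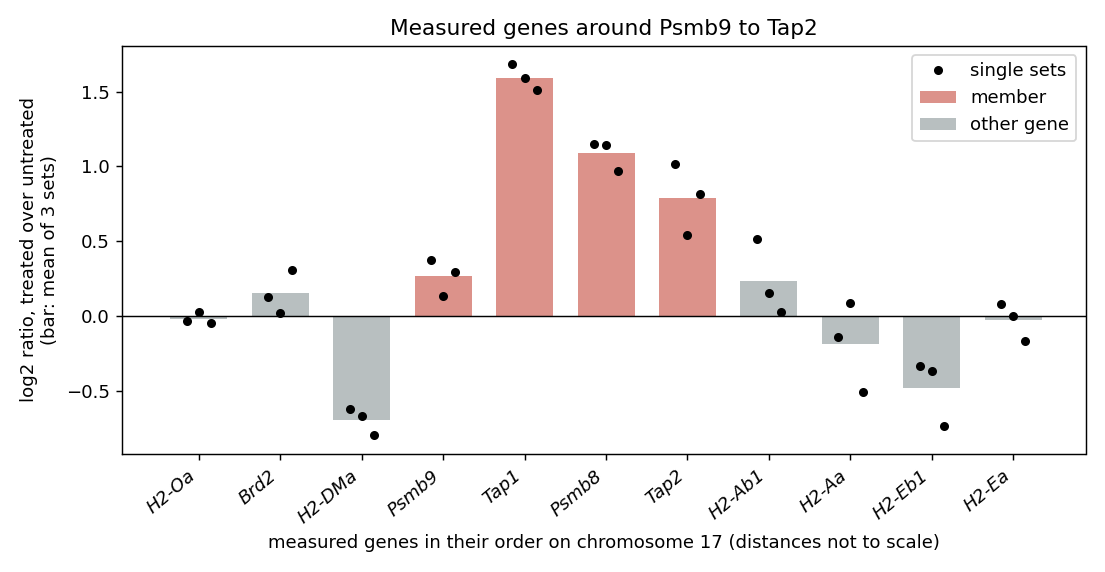
Log2 ratio of treated over untreated cells (vertical axis; bars are means of 3 sets, points are single sets) of the measured genes around Psmb9 to Tap2 in their order on chromosome 17, with distances not to scale. The 4 members lie between 0.27 and 1.59, and the other genes between -0.70 and 0.23.

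Genes of the same pathway outside the members were read from lists by role, drawn up with earlier results of these data known. Each count is to be set beside the 16.8% of all genes called higher and the 14.6% called lower. Class I heavy chains, which carry the peptide, rose in 12 of 17 measured cases and fell in 0, with a median of 0.81 (1.75-fold), a share up well above that of all genes. H2-T23 (log2 1.58 ± 0.06) and H2-T22 (1.57 ± 0.19) were highest, and the class I-like genes H2-Bl (0.03) and Cd1d1 (0.02), neither called, were lowest. H2-K1, a classical heavy chain, rose 1.75-fold (0.81 ± 0.04, adjusted p = 0.000244 in limma). H2 probes can bind near-identical copies, so which H2 gene rose is uncertain, and H2-D1 was not among the tested genes.

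Endoplasmic reticulum chaperones gave 1 of 9 up and 1 down, near the shares of all genes, with a median of 0.01. Calreticulin (Calr, -0.16) and Pdia3 (0.56 ± 0.81), both partners of tapasin in the loading complex, and calnexin (Canx, -0.01), which folds heavy chains, were not called. The set values of Pdia3 were 0.41, -0.16 and 1.43. The general chaperone Hspa5 rose (0.87 ± 0.34, adjusted p = 0.00243 in limma) and Erp29 fell (-0.61 ± 0.14, adjusted p = 0.00164 in limma), with Hsp90b1 (-0.16, not called) next lowest. Without set 2, 2 of these chaperones rose.

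In the fit of the 3 set values, the constitutive 20S core gave 1 of 11 up and 0 down, no more than among all genes, with a median of 0.16. Psma6 rose (0.70 ± 0.27, adjusted p = 0.00323 in limma), Psma4 was at 0.46 ± 0.48 (adjusted p = 0.0788 in limma), and Psma2 (-0.07) and Psma7 (-0.08) were lowest and not called. Psmb6 and Psmb7, without a ratio on all 6 arrays, are not among the 11, and both were called higher over sets 2 and 3. When genes with a ratio in at least 2 complete sets were kept, 3 members of the list were up. Without set 2 the count up was also 3. With the 6 arrays as separate replicates it was 5, and on the Cy3 arrays alone it was 6. Those 2 settings called 3381 and 3104 genes either way, against 3018 in the fit of the 3 set values. The share of all genes called higher is not given for these alternatives, so the comparison with all genes holds for that fit only.

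The 19S cap, which recognises ubiquitin-marked proteins, gave 3 of 18 up (Psmd10 at 0.78, Psmd8 at 0.63 and Psmd14 at 0.41) and 0 down, with a median of 0.05. That share up was about the 16.8% of all genes, so the count is no result about the cap. Its lowest members were Psmd9 (-0.26) and Psmc6 (-0.51 ± 0.59), neither called, and 1 and 2 members fell without set 1 and without set 3. Other activators and assembly factors gave 2 of 8 up and 0 down, close to the share of all genes for so short a list. These were Psmd10, an assembly chaperone that is in both lists, and the activator Psme4 (0.38 ± 0.20, adjusted p = 0.0202 in limma). The nuclear activator Psme3 was at -0.04 and the assembly factor Pomp at 0.11, neither called, and the lowest were Psmg1 (-0.26) and Psmd9. Of this list, 1 member rose without set 2 and without set 3, and 1 fell without set 1 and without set 3. The proteasome inhibitor Psmf1, also listed, was not among the tested genes.

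Cytosolic peptidases, which cut peptides before transport, gave 0 of 7 up and 1 down, about the 14.6% of all genes called lower, with a median of -0.11. Nln fell 1.77-fold (-0.82 ± 0.12, adjusted p = 0.000378 in limma). Prep (-0.25) was next lowest, and Lta4h (0.13) and Thop1 (0.10) were highest, none of them called.

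Among regulators of class I transcription and interferon signalling, 15 of 19 rose and 1 fell, a share up well above the 16.8% of all genes, with a median of 0.52. Ifnb1, which encodes interferon beta, had the largest rise (3.07 ± 0.81), followed by Irf7 (2.46 ± 0.14), a factor that drives interferon genes. Stat2 (1.61 ± 0.02) and Irf9 (0.82 ± 0.14), which form the factor activated by type I interferons, both rose, and so did Irf1 (0.52 ± 0.19), a factor known to bind the Psmb9 and Tap1 start region. Ifngr1, the ligand-binding chain of the interferon gamma receptor, fell (-0.36 ± 0.10, adjusted p = 0.0105 in limma). Of the NF-kappaB subunits, Nfkb2 (0.81 ± 0.16) and Relb (0.70 ± 0.14) rose, and Rela (-0.12) was not called. Without set 1, 11 of the 19 rose. Nlrc5 was not among the tested genes.

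**Figure D4:**
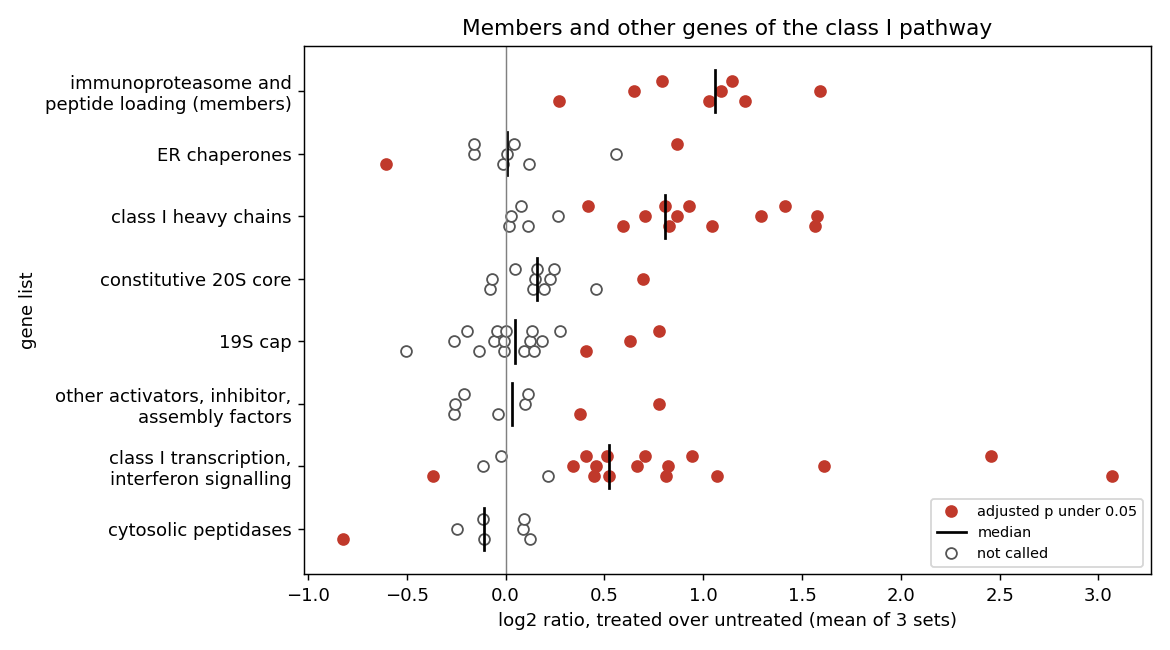
Log2 ratio of treated over untreated cells (horizontal axis, mean of 3 sets) of single genes in the members' row and in 7 lists of the same pathway; filled points passed an adjusted p under 0.05 in limma and black lines are medians. The members and the heavy chains have medians of 1.06 and 0.81, and those of the 20S core and 19S cap are 0.16 and 0.05.

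Outside the members, the 5 genes nearest to their mean profile, by Euclidean distance over the 6 ratios, were Ackr1 (0.197), Mov10 (0.199), Snx20 (0.203), Slc12a4 (0.207) and Dgka (0.258). They encode an atypical chemokine receptor, an RNA helicase, a sorting nexin, a potassium-chloride cotransporter and a diacylglycerol kinase. Their mean ratios lay between 0.92 and 1.02, beside the members' mean profile of 0.92 to 1.06 over the 6 arrays. None of them is in the lists above.

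Of 20 measured markers of dendritic cells, B cells, T cells, fibroblasts and epithelium, 3 rose and 0 fell, near the 16.8% of all genes called higher and under the 14.6% called lower, and their ratios lay between -0.14 and 0.35. Among macrophage genes 7 of 9 rose, above that 16.8%, and 1 fell. The part of such markers in the members' ratios was not tested.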

How the data were processed

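From their signs and range, the deposited numbers were read as a log2 ratio of both channels per array. The sources used here do not give the authors' background correction or normalization. Dyes come from the labels. Each deposited column has a median of 0, so centring by the authors is likely but unstated, and the highest value, 6.644, looks like a limit; no member came near it. Exact zeros (9.58% to 12.88% of an array's 16281 probes) were taken as missing.

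Ratios were turned to treated over untreated, and probes with 6 ratios that name 1 gene symbol in the platform annotation (13738 probes name 1, 52 several, 2491 none) were averaged per gene. The 2 orientations of a set were averaged, and limma 3.58.1 (lmFit and eBayes, under R 4.3.3) compared the 3 set values with 0, two-sided. P-values were adjusted by Benjamini-Hochberg over 9607 genes, and 3018 passed 0.05. The array number limits the precision. Figures and other tables were made with Python 3.11.15, and motifs were searched in RefSeq windows of GRCm38.p6.

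The members, the lists and the naming rule (all members; from each list the 2 highest and 2 lowest; the 5 nearest genes) were chosen with earlier results of these data known. A few further genes are named for their role or place. Alternatives covered pairing, dye, left-out sets, zeros, filter, normalization, probe summary and variance moderation.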

Additional observations from a re-analysis of the deposited data

Results flagged for a closer look

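Tap2 had 1 array apart from the others. With treated RNA in Cy5, set 2 gave a log2 ratio of 0.31 (0.3091), while the other 5 arrays lay between 0.77 and 1.05. The gap to the nearest array relative to the whole range was above Dixon's 95% critical value for 6 values, which chance passes in about 1 of 20 groups, and 8 members were examined. Without set 2, Tap2 stood at 0.92 and was still called. The cause was not tested.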

How the results depend on the processing

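Over 14 alternatives, the 7 tested members other than Psmb9 kept their direction and their call. Psmb9 kept its direction and lost its call in 5 of them (log2 between 0.19 and 0.35; adjusted p up to 0.2), the one not yet given being exact zeros kept as ratios (adjusted p = 0.0758). The number of members called was thus 7 or 8. The number of genes called lay between 2103 (exact zeros kept) and 3649 (dye term), against 3018, and between 2158 and 2990 with a set left out. The 2 arrays of a set number deviated together at correlations of 0.219, 0.0789 and 0.57 for sets 1 to 3. The arrays of set 3 thus varied together, and those of set 2 hardly did, while the duplicateCorrelation estimate was 0.0031. Whether the arrays of a set share RNA was not tested, and fits that count the 6 arrays separately may overstate the replication. With no replicate block 3381 genes and 8 members were called, and with the replicate block by duplicateCorrelation 3378 and 8.

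Psmb8 minus Psmb5 moved to 1.13 on the Cy5 arrays and 0.73 on the Cy3 arrays. Psmb9 minus Psmb6 moved to -0.061 on the Cy5 arrays and -0.023 with exact zeros kept. Psmb10 minus Psmb7, with a mean of 0.67, stood at 0.89 on the Cy5 arrays, 0.45 on the Cy3 arrays and 0.87 with exact zeros kept. List counts moved by over 1.5 times only where they were small. The shares of all genes called higher or lower are not given for the alternatives, so these counts have no such share beside them. The 20S core had between 1 and 6 members up, the 19S cap between 0 and 2 down, the activators and assembly factors between 1 and 2 up and between 0 and 2 down, the peptidases between 1 and 2 down, the chaperones between 1 and 2 up and between 0 and 1 down, and the regulators between 0 and 1 down. The causes were not tested. Ratios alone carry no signal over background, so dim probes could not be left out, and neither background correction nor another within-array normalization was run.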
